A study of Mus musculus with 21 samples.

Results

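Nuclear receptors are transcription factors that bind DNA as single molecules, as pairs of one kind or as pairs with a retinoid X receptor, and most of them change activity when a small lipid-soluble ligand enters their ligand-binding pocket. In liver they set the programmes for bile acid, lipid, sugar and xenobiotic metabolism. The glucocorticoid receptor (GR, encoded by Nr3c1) is itself a member of the family. It is held by chaperones in the cytoplasm until a glucocorticoid binds, and then enters the nucleus and binds DNA, often at regulatory elements of genes that encode other transcription factors. The question put to the data here was at which of the family's own genes GR was bound in mouse liver, and how this binding varied with the hormone and with oxygen.

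The data are ChIP-seq libraries (sequencing of the DNA that an antibody against GR pulls down with crosslinked chromatin), made from C57BL/6J mouse liver in 6 groups of 3 biological replicates. Mice stayed in normoxia (21% oxygen) or breathed 7% oxygen for 6 h or 24 h. Each oxygen condition was split into mice given 10 mg/kg dexamethasone (DEX, a synthetic glucocorticoid) by intraperitoneal injection and mice given phosphate-buffered saline (PBS), and livers were taken 2 h after the injection. Strain, antibody and interval after injection were the same in all 6 groups, and an input library was made for each of the 3 oxygen conditions. The age and sex of the mice are not given in the sources used here. The tissue was whole liver, so more cells with a bound site and more binding per cell cannot be told apart.

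Peaks of the 18 GR libraries that overlapped were merged into 7398 sites. A list of 46 nuclear receptor genes was used, and a site was given to a gene when that gene's span was the nearest of all protein-coding genes to the site's centre and lay within 100 kb. The members were 50 sites at 21 of the 46 genes (45.7%). Of all 21900 protein-coding genes, 22.5% had a site by the same rule. A longer span can hold more sites, and gene length was not taken into account in these shares. Sites of a gene are numbered by position along the chromosome. Ppara had 7 sites, Rora 5, Nr1i2 and Hnf4a 4 each, and Nr0b2, Nr5a2, Pparg, Rara, Rxra and Esr1 3 each. Nr3c1 had 2 sites, and Nr1d2, Nr1h3, Nr1h4, Nr2c1, Nr2c2, Nr3c2, Nr4a1, Rarb, Rxrg and Thra had 1 each. Of the 50 sites, 38 lay inside the span of their gene (76%), against 66.8% of all sites.

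No site was given to the other 25 listed genes. These were the xenobiotic sensor Nr1i3, the vitamin D receptor Vdr, the oxysterol receptor Nr1h2 and Nr1h5, the clock repressor Nr1d1, the thyroid hormone receptor Thrb, and Rarg, Rxrb, Rorb and Hnf4g. The orphan receptors Nr0b1, Nr2e1, Nr2e3, Nr2f1, Nr2f2, Nr2f6, Nr4a2, Nr4a3, Nr5a1 and Nr6a1 had none either, nor had the steroid receptors Esr2 and Pgr and the estrogen-related receptors Esrra, Esrrb and Esrrg.

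Peaks reached into 8 promoter windows of 7 of the genes, each in 1 library. A window runs from 250 bases before to 50 bases after a start in the RefSeq table for GRCm38.p6, the assembly behind mm10, which the files use. Of these, 4 are shown: the 3 genes whose windows lay under a peak over the most bases, and Nr0b2, whose peak next to the start was called in 4 DEX libraries. Each is written on the strand of its gene, and capitals mark the bases under the called peak. The first 3 come from normoxia DEX libraries and the last from normoxia PBS replicate 1.
Nr0b2, chr4:133553126-133553425, plus strand: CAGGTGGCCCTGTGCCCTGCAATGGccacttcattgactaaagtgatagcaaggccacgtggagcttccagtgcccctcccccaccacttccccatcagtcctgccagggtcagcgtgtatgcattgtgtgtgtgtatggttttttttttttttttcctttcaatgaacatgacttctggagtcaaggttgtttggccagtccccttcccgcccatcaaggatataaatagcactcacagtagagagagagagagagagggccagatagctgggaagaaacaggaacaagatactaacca
Nr1h3, chr2:91194986-91195285, minus strand: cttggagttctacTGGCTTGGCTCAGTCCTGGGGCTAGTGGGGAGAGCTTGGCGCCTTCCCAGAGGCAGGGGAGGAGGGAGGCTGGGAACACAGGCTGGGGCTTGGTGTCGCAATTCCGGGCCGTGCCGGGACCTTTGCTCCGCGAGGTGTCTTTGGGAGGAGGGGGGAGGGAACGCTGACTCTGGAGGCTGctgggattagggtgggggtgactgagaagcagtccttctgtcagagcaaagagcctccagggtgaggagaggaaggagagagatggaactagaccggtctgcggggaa
Pparg, chr6:115421816-115422115, plus strand: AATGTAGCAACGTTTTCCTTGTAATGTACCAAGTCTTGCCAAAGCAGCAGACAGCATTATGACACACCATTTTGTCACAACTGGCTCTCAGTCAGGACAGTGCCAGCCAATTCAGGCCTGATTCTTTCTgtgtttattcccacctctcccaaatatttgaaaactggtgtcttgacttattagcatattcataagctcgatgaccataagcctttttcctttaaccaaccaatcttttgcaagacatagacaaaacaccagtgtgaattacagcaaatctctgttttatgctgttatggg
Rarb, chr14:16575427-16575726, minus strand: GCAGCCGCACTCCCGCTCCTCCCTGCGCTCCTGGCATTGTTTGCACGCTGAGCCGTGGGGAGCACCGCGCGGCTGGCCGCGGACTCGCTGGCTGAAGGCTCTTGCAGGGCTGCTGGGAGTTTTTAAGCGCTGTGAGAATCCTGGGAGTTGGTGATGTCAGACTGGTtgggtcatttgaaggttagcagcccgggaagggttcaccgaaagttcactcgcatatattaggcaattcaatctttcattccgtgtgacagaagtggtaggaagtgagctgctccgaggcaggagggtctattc

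Nr0b2 encodes the small heterodimer partner, a repressor that lacks a DNA-binding domain, and its window was overlapped over 25 bases by a peak of 77.4 normalized tags in normoxia DEX replicate 1. Nr1h3 encodes the oxysterol receptor LXR alpha, and the whole 179-base peak of normoxia DEX replicate 3, at 45.7 tags, lay inside the window. Pparg encodes the adipocyte receptor PPAR gamma, and 129 bases of its window lay under a peak of 64.5 tags in normoxia DEX replicate 1. Rarb encodes retinoic acid receptor beta, and 166 bases lay under a peak of 15.1 tags. The windows were searched on both strands for the palindrome to which GR binds as a pair (GNACA, 3 free bases and TGTNC, where N is any base) and for the 6-base AGAACA. Neither stood in any of the 8 windows. Among all 21263 windows of the table, 0.442% held the palindrome and 16.2% held AGAACA. These are matches of letters only, and no match says only that the letters are not in the window.

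Library depth and peak numbers differed. The 9 DEX libraries held 5772670 to 13181686 tags and the 9 PBS libraries 8667179 to 43645787. The share of tags in peaks was 1.38 to 3.68% with DEX and 0.15 to 1.23% with PBS. Normoxia PBS replicate 1 stood apart: it was the deepest, its peaks were 280 bp wide against 178 to 196 bp in the other 17 libraries, and it held 3915 peaks against 78 to 751 in the other 8 PBS libraries. Of the 50 nuclear receptor sites, 9 were called in this library alone (18%, against 43.7% of all sites), at 11.7 to 19.5 normalized tags. Without it 41 sites at 15 genes were left (32.6% of the 46), against 11% of all protein-coding genes. The shallowest library, 6 h hypoxia DEX replicate 2, listed no peak under 83.2 tags, so lower sites could not be called in it. Among marker genes, 8 of 10 hepatocyte, 1 of 9 Kupffer cell and leukocyte, 4 of 7 endothelial, and 1 of 9 stellate cell and cholangiocyte genes had a site. The share of all protein-coding genes was 22.5%. A site detected more often with DEX was found at 4, 0, 3 and 0 of these genes in the same order, against 4.74% of all protein-coding genes. These counts do not show which cells the tissue held. A site near a gene is not a measure of its expression.

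Detection, that is, whether a library's list holds a peak at the site, was uneven among the members. Only 2 sites were called in all 18 libraries, at Rxra and Nr1i2. A further 4 were called in all 9 DEX libraries, at Hnf4a, Esr1, Ppara and Nr0b2, and those at Hnf4a and Esr1 in no PBS library. Of all 7398 sites, 0.838% were called in all 18 libraries and 12.6% in all 9 DEX libraries, against 4% and 12% of the 50. In all, 30 members were called with DEX only (60%, against 40.3% of all sites), 10 with PBS only (20%, against 44.2%) and 23 in 1 library (46%, against 59.1%). Of the 14 sites called in 1 DEX library and nowhere else, 13 came from normoxia DEX, 9 of them from replicate 1. That library had the longest DEX list, with 3659 peaks against 1235 to 2516 in the others. The same split over all sites is not given here, so it is no trait of the receptor genes. Tag counts are the authors' normalized counts per 10000000 tags of a library, and at the 40 sites called with DEX they ran from 40.2 to 571.1 in DEX libraries.

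**Figure D1:**
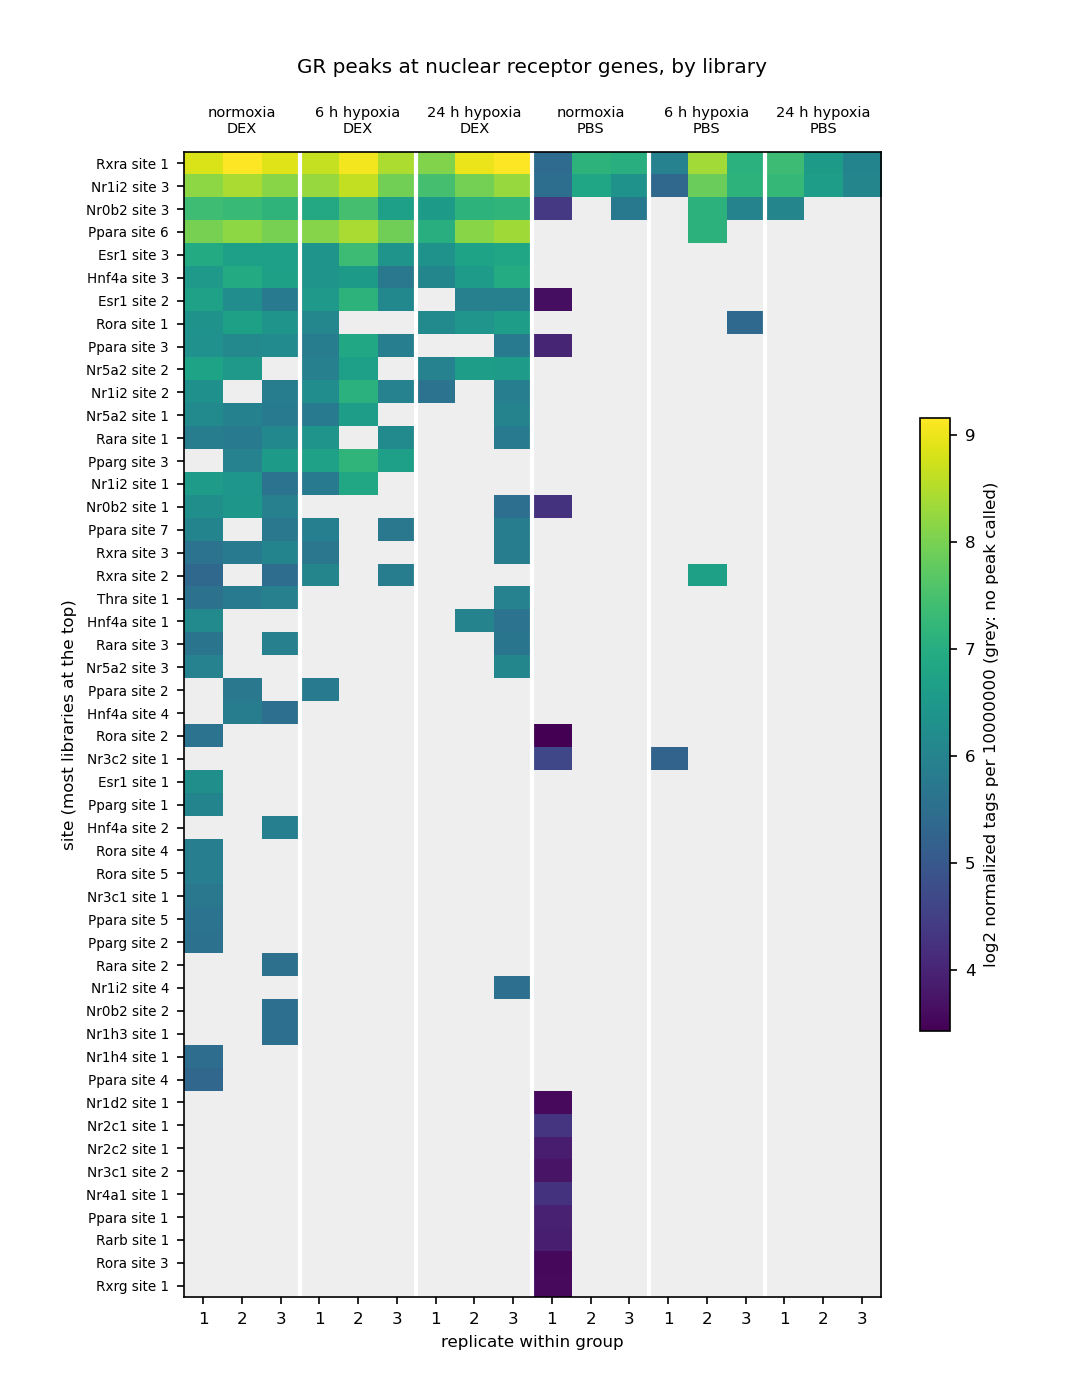
Each row is 1 of the 50 sites at nuclear receptor genes and each column 1 of the 18 libraries, with colour for the log2 normalized tag count (per 10000000 tags) and grey where no peak was called. The sites of Rxra and Nr1i2 at the top were called in all 18 libraries, and the 9 rows at the bottom in normoxia PBS replicate 1 only.

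Of the 50 sites, 22 were called in 3 or more of the 18 libraries and could be tested for detection with DEX against PBS (two-sided exact Cochran-Mantel-Haenszel test with the oxygen conditions as strata, Benjamini-Hochberg adjusted over the 2563 sites tested). DEX raised detection at 13 of the 22 (59.1%), against 55.3% of all sites tested, so the share was near the background. Detection fell at 0 of the 22, also at an unadjusted p of 0.05, against 0.039% of all sites. The 2 members called in all 18 libraries could show no change in this test. The test takes the number of calls in each oxygen condition as fixed. At Nr0b2 sites 1 and 3, Hnf4a site 1, Ppara site 7, Rara site 3 and the Thra site, DEX libraries held as many of these calls as possible. Even so these sites could not pass, so their results do not speak to the size of a DEX effect. The 13 sites belonged to 9 genes: Rxra, Nr1i2, Ppara, Pparg, Rara, Rora, Hnf4a, Nr5a2 and Esr1. Of all protein-coding genes, 4.74% had such a site, against 19.6% of the 46, with gene length not taken into account. With the replicate number as a block, 6 of the 22 members passed, against 921 of all 2563 sites. Nr1i2 site 1, Nr5a2 site 1, Ppara site 3, Pparg site 3, Rara site 1, Rora site 1 and Rxra site 3 were lost. Each stratum of the block held 1 DEX and 1 PBS library, and only pairs that differed counted. At the lost sites other than Rora site 1, every such pair favoured DEX, but too few pairs differed for a site to pass. Their loss is therefore no measure of a weaker DEX effect. When all 7398 sites were tested, 6 of the 50 members passed, against 929 of all sites. When only peaks of 83.2 or more tags counted, 5 of 11 members passed, against 802 of 1270 sites. When every list was cut to 78 peaks, 0 of 2 members passed, against 28 of 135 sites. The share of tags in peaks moved with DEX as given above, and its part in these counts was not tested.

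At the genes of the retinoid X receptors, the shared pairing partners of the family, the highest site of all 50 was found. Rxra site 1, at chr2:27625046-27625326, lay 52.0 kb upstream of the gene's nearest listed start and was called in all 18 libraries. With DEX it held 457.5, 567.0 and 472.2 tags in normoxia, 400.3, 530.1 and 348.3 after 6 h, and 267.5, 507.4 and 571.1 after 24 h of hypoxia. With PBS it held 43.5, 139.6 and 129.7 in normoxia, 63.2, 330.1 and 136.5 after 6 h, and 163.8, 93.8 and 64.4 after 24 h. The DEX libraries were the higher ones in each oxygen condition with no overlap, although 6 h hypoxia PBS replicate 2 exceeded 24 h hypoxia DEX replicate 1. In each DEX list the site was within the top 1.48 to 5.91% of peaks.

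The level at Rxra site 1 rose with DEX from 129 ± 85.8 (SD, n = 9) to 458 ± 103 tags (n = 9), a log2 change of 2.03 ± 0.32 (SE; limma, adjusted p = 9.76e-09). This ranked 12th among the 62 sites called in all 18 libraries, where the median log2 change was 1.63 and 95.2% of sites rose; both members among them rose. When each library was centred on its median over these 62 sites, 16 of them were higher and 20 lower with DEX, in place of 59 and 0. Rxra site 1 remained higher on the centred scale, by a log2 difference of 0.40 ± 0.10 (limma, adjusted p = 0.00156).

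Inside Rxra, site 3 lay 49.3 kb past the start and was called with DEX only, at 48.6, 55.4 and 64.3 tags in normoxia, 52.4 in 6 h replicate 1 and 57.7 in 24 h replicate 3 (adjusted p = 0.0452). Without 6 h hypoxia DEX replicate 1 or 24 h hypoxia DEX replicate 3 this call was lost. Rxra site 2 did not pass: it was called in 4 DEX libraries at 41.0 to 65.6 tags and in 6 h hypoxia PBS replicate 2 at 103.6. Rxrg, the retinoid X receptor gamma gene, had 1 site, called in normoxia PBS replicate 1 alone.

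Among the receptors that pair with retinoid X receptors, Nr1i2 encodes the pregnane X receptor, which senses drugs and bile acids. Its 4 sites all lay inside the gene, 5.8 to 14.9 kb past the start. Nr1i2 site 3 at chr16:38287875-38288155 held 292.1, 344.6 and 284.1 tags in normoxia with DEX, 308.5, 398.4 and 244.5 after 6 h, and 177.8, 247.5 and 308.5 after 24 h. With PBS it held 45.4, 110.8 and 83.0 in normoxia, 40.9, 229.8 and 140.2 after 6 h, and 151.9, 98.9 and 65.4 after 24 h. As at Rxra, the DEX values lay above the PBS values within each oxygen condition, and 6 h hypoxia PBS replicate 2 exceeded 24 h hypoxia DEX replicate 1.

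Nr1i2 site 3 rose from 107 ± 59.9 with PBS to 290 ± 63.2 tags with DEX (SD, n = 9 each). The log2 change was 1.60 ± 0.31 (SE; limma, adjusted p = 1.85e-06). It ranked 34th of the 62 sites, and on the centred scale its change was -0.03 ± 0.11 (limma, adjusted p = 0.802), close to the median change of that set. Detection was raised at its neighbours. Site 2, 11.8 kb past the start, held 79.7 and 57.3 tags in normoxia DEX replicates 1 and 3, 75.2, 136.9 and 62.8 after 6 h, and 48.7 and 59.3 in 24 h replicates 1 and 3, and was in no PBS list (adjusted p = 0.0112). Site 1, 14.9 kb past the start, held 94.8, 86.9 and 48.8 tags in normoxia and 54.2 and 114.3 in 6 h replicates 1 and 2, with no peak after 24 h or with PBS (adjusted p = 0.0403).

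Ppara, the fatty acid sensor of hepatocytes and a driver of fasting fat oxidation, had the most sites. Ppara site 6 at chr15:85776821-85777106, 41.2 kb into the gene, held 253.4, 292.1 and 253.9 tags in normoxia, 277.9, 346.5 and 241.7 after 6 h, and 129.9, 281.4 and 325.1 after 24 h of hypoxia with DEX. The single PBS peak there was in 6 h hypoxia replicate 2, at 138.6, above the lowest DEX value only. Detection was 9 of 9 with DEX and 1 of 9 with PBS (adjusted p = 0.00438). Ppara site 3, 3.15 kb upstream of the start, held 80.4, 69.7 and 73.5 tags in normoxia with DEX, 56.8, 116.1 and 59.0 after 6 h, and 56.2 in 24 h replicate 3. The PBS libraries had 1 peak there, at 16.3 in normoxia replicate 1, under all called DEX values (adjusted p = 0.0216). Site 7, 51.9 kb into the gene, was called in 5 DEX libraries at 52.6 to 64.5 tags and did not pass (adjusted p = 0.0677). All its calls were with DEX, and with these calls in each oxygen condition no split could pass.

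Pparg site 3 lay 21.2 kb beyond the gene's span. It held 63.0 and 93.7 tags in normoxia DEX replicates 2 and 3 and 104.9, 145.5 and 101.8 in the 6 h hypoxia DEX libraries, and no peak was called at 24 h or with PBS (adjusted p = 0.0403). Rara, the retinoic acid receptor alpha gene, was called with DEX only at site 1, 8.8 kb upstream of its nearest start and inside the span, at 57.7, 54.4 and 68.9 tags in normoxia, 84.8 and 71.4 in 6 h replicates 1 and 3, and 55.4 in 24 h replicate 3 (adjusted p = 0.0216). The thyroid hormone receptor gene Thra had 1 site, at 47.8, 56.3 and 61.2 tags in normoxia with DEX and 62.5 in 24 h replicate 3, which missed the threshold (adjusted p = 0.0764). All calls of the Thra site were with DEX, and so few calls could not pass. Nr1h3 and the bile acid receptor gene Nr1h4 each had 1 site in 1 normoxia DEX library, at 45.7 and 44.8 tags.

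Hnf4a, Nr5a2 and Nr0b2 encode receptors of the hepatocyte network that controls bile acid synthesis. At Hnf4a, the master regulator of hepatocyte identity, 3 of the 4 sites lay 6.4 to 7.8 kb upstream of the nearest listed start, inside the gene's span. Hnf4a site 3 at chr2:163540653-163540921 held 91.8, 122.2 and 103.0 tags in normoxia with DEX, 83.9, 93.5 and 53.3 after 6 h, and 66.7, 94.9 and 124.2 after 24 h. No PBS library had a peak there, and the detection test gave an adjusted p of 0.00307. Its mean of 92.6 ± 23.1 tags (SD, n = 9) ranked 822nd of the 935 sites called in all 9 DEX libraries, whose median was 140 tags, so it was near the low end of those sites.

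Nr5a2, which encodes LRH-1, had its most often called site outside the gene. Nr5a2 site 2 lay 60.3 kb upstream of the start and held 108.5 and 91.6 tags in normoxia DEX replicates 1 and 2, 61.2 and 102.2 in 6 h replicates 1 and 2, and 63.2, 98.3 and 97.3 after 24 h. It was in no PBS list (adjusted p = 0.0112). Nr5a2 site 1, 27.6 kb into the gene, held 72.1, 62.0 and 54.2 tags in normoxia with DEX, 54.2 and 100.5 in 6 h replicates 1 and 2, and 63.3 in 24 h replicate 3, with no peak under PBS (adjusted p = 0.0216).

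At Nr0b2, site 3 lay 6.8 kb beyond the gene's span. It held 165.4, 155.6 and 142.4 tags in normoxia with DEX, 118.0, 178.4 and 101.8 after 6 h, and 94.0, 141.3 and 144.0 after 24 h. With PBS, 5 libraries had a peak there, at 20.8 and 53.9 in normoxia replicates 1 and 3, 138.6 and 63.9 in 6 h replicates 2 and 3, and 65.5 in 24 h replicate 1. Detection in 9 against 5 of 9 libraries did not pass (adjusted p = 0.131), and with that many calls no split between DEX and PBS could pass. All called PBS values but that of 6 h replicate 2 were under the lowest DEX value. Nr0b2 site 1, centred 430 bp upstream of the start, held 77.4, 88.8 and 60.4 tags in normoxia with DEX, 45.9 in 24 h hypoxia DEX replicate 3 and 19.2 in normoxia PBS replicate 1, and no peak after 6 h. It too did not pass for DEX against PBS, and with its calls in each oxygen condition it could not. The orphan repressor genes Nr2c1 and Nr2c2 each had 1 site, in normoxia PBS replicate 1 alone.

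**Figure D2:**
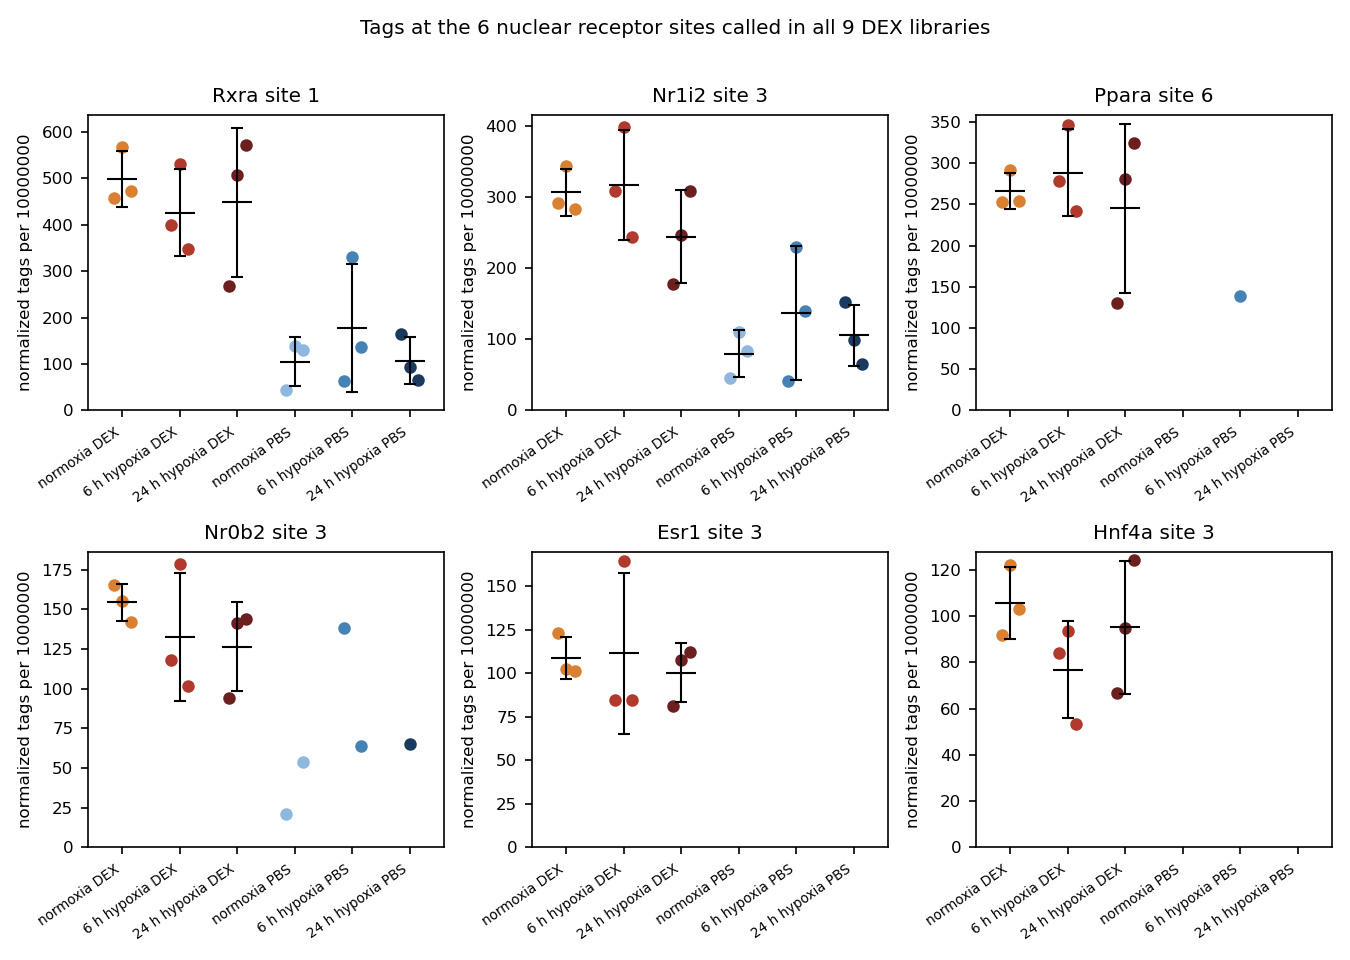
Normalized tags per 10000000 at the 6 sites called in all 9 DEX libraries, by group; points are libraries, and bars the mean and SD where all 3 libraries of a group had a peak. Points are missing where no peak was called, as for every PBS library at Esr1 site 3 and Hnf4a site 3.

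Among the steroid receptors, GR sites were found at Esr1, which encodes estrogen receptor alpha. Esr1 site 3 at chr10:4671976-4672215, inside the gene, held 122.9, 102.1 and 101.4 tags in normoxia with DEX, 84.8, 164.6 and 84.7 after 6 h, and 81.2, 107.4 and 112.3 after 24 h. Like Hnf4a site 3, it was in no PBS list (adjusted p = 0.00307). Esr1 site 2, 13.5 kb into the gene, held 104.7, 75.4 and 55.0 tags in normoxia with DEX, 90.9, 140.3 and 68.5 after 6 h, and 61.0 and 60.9 in 24 h replicates 2 and 3. Its only PBS peak was in normoxia replicate 1, at 12.6 (adjusted p = 0.0112).

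The gene of GR itself, Nr3c1, had 2 sites, each in 1 library, at 53.1 tags in normoxia DEX replicate 1 and 13.3 in normoxia PBS replicate 1. The mineralocorticoid receptor gene Nr3c2, whose product also binds glucocorticoids, had 1 site, called at 25.0 and 38.3 tags in normoxia and 6 h hypoxia PBS replicate 1 and in no DEX library. Neither gene had a site in the 3 libraries needed for the test of DEX against PBS.

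Of the clock-linked members, Rora encodes an activator and Nr1d1 and Nr1d2 encode repressors that compete for the same elements. Rora site 1, 287 kb past the nearest listed start and inside the gene, held 83.4, 103.1 and 84.4 tags in normoxia with DEX, 67.3 in 6 h replicate 1, and 70.9, 85.9 and 99.7 after 24 h. The PBS libraries had 1 peak there, at 42.2 in 6 h replicate 3 (adjusted p = 0.0439). Its other 4 sites were each called in 1 or 2 libraries. Nr1d2 and the immediate early gene Nr4a1 each had a site in normoxia PBS replicate 1 only, and the site of Thra lay 13.5 kb from Nr1d1, which had none of its own.

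Position and detection were set side by side for the 47 sites of genes with a listed start. Of the 8 such sites found only in normoxia PBS replicate 1, 5 lay within 1 kb of a start, and of the other 39, 5 did. The 6 sites called in all 9 DEX libraries lay 6.4 to 52.0 kb from a start. Distances from a start over all sites of the series are not given here. Whether these positions differ from those of other sites was not tested.

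**Figure D3:**
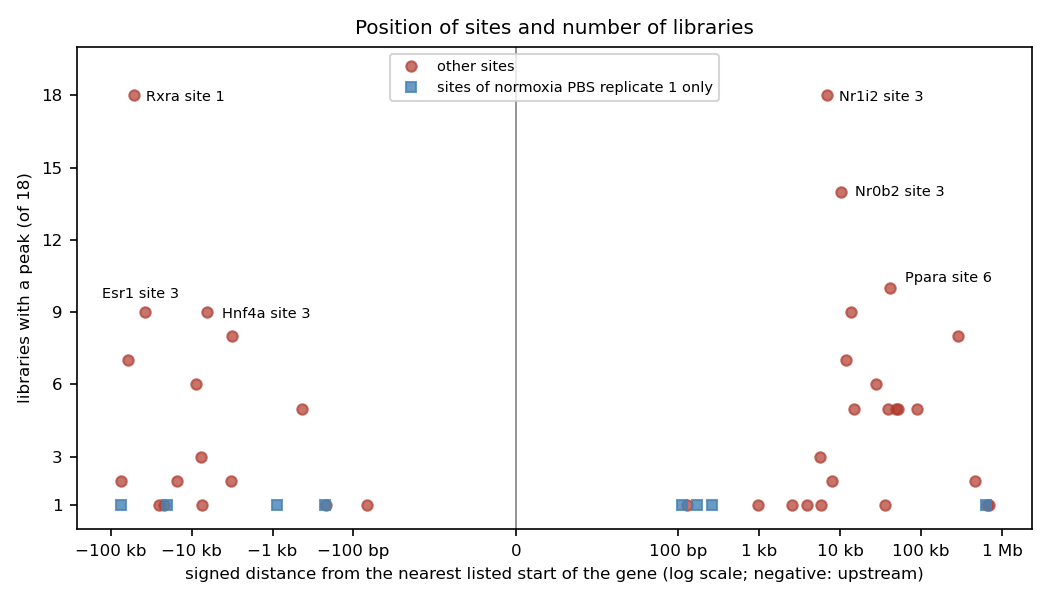
Signed distance of each site's centre from the nearest listed start of its gene (horizontal, log scale, negative upstream) and the number of the 18 libraries with a peak there (vertical). The 6 named sites, called in all 9 DEX libraries, lie 6.4 to 52.0 kb from a start, and squares mark sites of normoxia PBS replicate 1 only.

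Whether the DEX effect on tags differed in hypoxia could be tested at the 2 sites called in all 18 libraries. At Rxra site 1 the log2 change with DEX was 2.43 ± 0.55 (SE) in normoxia, 1.57 ± 0.55 after 6 h and 2.10 ± 0.55 after 24 h of hypoxia. At Nr1i2 site 3 it was 2.03 ± 0.55, 1.50 ± 0.55 and 1.26 ± 0.55. The difference, hypoxia minus normoxia, was -0.60 ± 0.67 at Rxra and -0.65 ± 0.67 at Nr1i2 (limma interaction, adjusted p = 0.613 for both), and on the centred scale it was 0.12 and 0.07. Of the 62 sites tested, 0% passed in either direction, and 4.84% were lower and 0% higher at an unadjusted p of 0.05, none of these at the 2 members.

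With DEX on board, the levels at the 6 sites called in all 9 DEX libraries were compared between hypoxia and normoxia, each library being centred on its median over the 935 such sites. None of the 6 changed past the threshold (limma), against 2.03% of the 935 sites higher and 1.39% lower in hypoxia. None passed at an unadjusted p of 0.05 either, against 8.34% higher and 6.2% lower. The log2 changes with 6 h and 24 h together were 0.09 ± 0.15 at Ppara site 6, 0.07 ± 0.14 at Esr1 site 3, -0.02 ± 0.13 at Nr1i2 site 3, -0.08 ± 0.15 at Rxra site 1, -0.14 ± 0.12 at Nr0b2 site 3 and -0.19 ± 0.20 at Hnf4a site 3 (SE). They lay within -0.19 to 0.09. Over all 935 sites the median was 0.05 and the range -1.47 to 1.54, but a range over more sites tends to be wider. With shares of called sites this low, no call among 6 sites does not set them apart from the rest. Without centring, the values at Esr1 site 3 and Ppara site 6 were -0.08 and -0.06, and leaving out 1 library at a time also turned the sign at Nr1i2 site 3 and Rxra site 1.

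Of the 6, Hnf4a site 3 differed most between the times of hypoxia, and it is described for that reason. Its tags in 6 h DEX replicates 2 and 3, 93.5 and 53.3, were near the lowest in those lists, 83.2 and 46.6. Its log2 change against normoxia was -0.47 ± 0.17 after 6 h (limma, unadjusted p = 0.0158, adjusted p = 0.183) and 0.10 ± 0.17 after 24 h. The 24 h libraries were higher than the 6 h libraries by 0.58 ± 0.17 (unadjusted p = 0.005, adjusted p = 0.114), so none of these passed after adjustment over the 935 sites. Over those sites 1.71% were higher and 0.856% lower after 6 h (9.73% and 5.56% at an unadjusted p of 0.05), and 2.14% were higher and 2.03% lower after 24 h. Between the times, 0.107% were higher and 1.28% lower at 24 h than at 6 h (7.27% and 9.2% unadjusted).

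**Figure D4:**
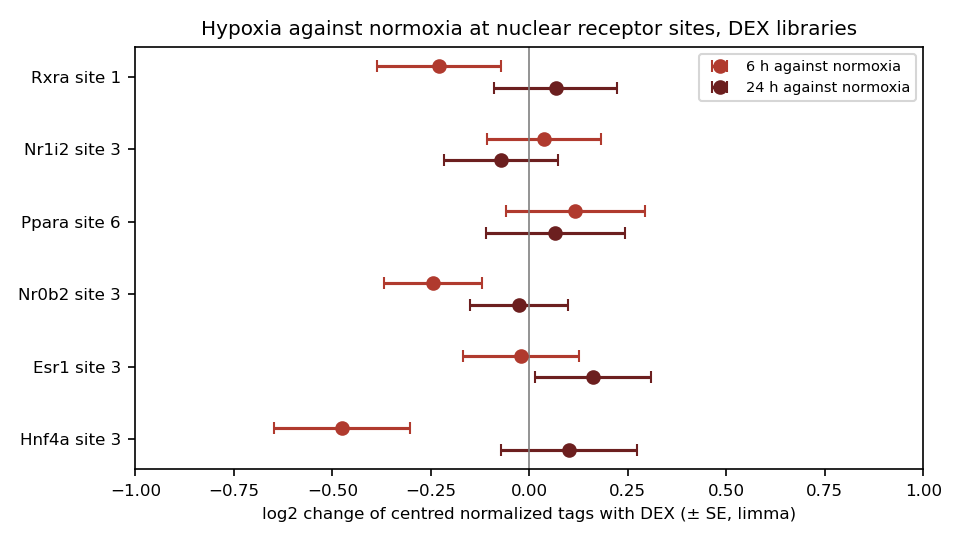
Log2 change of centred normalized tags in hypoxia against normoxia with DEX (horizontal, points with SE from limma) at the 6 sites called in all 9 DEX libraries, for 6 h and 24 h. Hnf4a site 3 after 6 h, at -0.47, is farthest from 0.

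The number of nuclear receptor sites in a list varied with oxygen. With DEX, 32, 19 and 25 sites were called in normoxia, 19, 13 and 13 after 6 h, and 9, 10 and 21 after 24 h of hypoxia, so the groups overlapped through normoxia replicate 2 and 24 h replicate 3. With PBS, 17, 2 and 3 were called in normoxia, 3, 5 and 4 after 6 h, and 3, 2 and 2 after 24 h. Of all sites in a DEX library these made up 0.906 ± 0.0768%, 0.873 ± 0.00469% and 0.792 ± 0.109% (SD, n = 3 each). The mean number of peaks in these DEX lists was lower in the same order, from 2803 ± 754 to 1717 ± 391 and 1631 ± 572, as did the share of tags in peaks, from 3.13 ± 0.479% to 2.58 ± 0.613% and 2.10 ± 0.692% (SD, n = 3 each). Their part in the number of receptor sites was not tested.

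Site by site, 25 members were called in 2 or more of the 9 DEX libraries and were compared between 6 hypoxia and 3 normoxia libraries (Fisher's exact test, two-sided). None passed after adjustment, against 0% of the 2938 sites tested, where the smallest adjusted p was 0.343. The 6 members called in all 9 DEX libraries could show no change in this test, nor could the 935 such sites of the series. At an unadjusted p of 0.05, 2 of the 25 (8%) were called less often in hypoxia, against 8.75% of all sites, and 0 more often, against 0.102%. These were Nr0b2 site 1 and the site of Thra, each in all 3 normoxia DEX libraries and in 24 h hypoxia DEX replicate 3 only (exact unadjusted p = 0.0476, adjusted p = 0.511). In 16 of the 25 (64%) the share of libraries with a peak was lower in hypoxia, against 59.5% of all sites tested. With PBS, 4 members were called in 2 or more of the 9 libraries and none passed, against 0% of 632 sites. None passed at an unadjusted p of 0.05 either, against 0.316% less often and 0.158% more often. Of these, Rxra site 1 and Nr1i2 site 3 were called in all 9 PBS libraries and could show no change. The site of Nr3c2, with 2 calls, could not reach an unadjusted p of 0.05.

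The genes around the receptors were taken from lists of coregulators, chaperones and ligand metabolism. Of all protein-coding genes, 22.5% had a site, 11% had one beyond normoxia PBS replicate 1 and 4.74% had one detected more often with DEX. Of 15 coactivator genes, 8 had a site, 5 of them beyond normoxia PBS replicate 1, and 1 had sites gained with DEX: Ppargc1b, whose best site was called in 9 DEX and 2 PBS libraries at 185 ± 43.3 tags (SD, n = 9). Of 9 corepressor genes, 6 had a site, 4 beyond that library, and 3 had a gained site. These included Lcor, whose best site was called in 9 DEX and 2 PBS libraries, and Zbtb16. Zbtb16 had 11 sites, including 1 in all 18 libraries at 461 ± 99.3 tags with DEX (SD, n = 9). Of 14 genes of GR chaperones and ligand supply, 7 had a site, 3 beyond that library, and 2 had a gained site: the cochaperone gene Fkbp5 and the steroid reductase gene Akr1d1. Of 15 genes that make or break down receptor ligands, 9 had a site, 7 beyond that library, and 3 had a gained site, Cyp27a1, Cyp24a1 and Hsd17b2.

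Ppard, the broadly expressed relative of Ppara, is a family gene outside the list. Its best site was called in all 9 DEX and no PBS libraries, and tags there fell by 1.47 on the log2 scale in hypoxia with DEX (SE 0.21, limma, adjusted p = 0.00149), the lowest value of the 935 sites. The difference between this change and that at the listed members was not tested.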

How the data were processed

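GR ChIP-seq peak lists of 18 liver libraries were used; the 3 inputs entered only through the peak caller. Samples were grouped by their titles. Per the submitters' processing notes, Trimmomatic, BWA 0.7.17, SAMtools 1.10 and HOMER were used with mm10; of HOMER no version is named there. According to the file headers, peaks were called in each library alone against the input of its oxygen condition, needing 4-fold more tags than input and a Poisson p of 1e-04.

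The deposited signal of a peak is the authors' normalized tag count, per 10000000 tags, over a peak width set for each library, which was wider in normoxia PBS replicate 1. The deposited score and the fold over input, a ratio, are also the authors' values per peak, and served only to rank peaks or to filter them. The authors' minimum of 50 tags was not scaled to depth, so shallower libraries needed more normalized tags.

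Overlaps of 1 bp or more joined peaks into sites. A site's tags in a library are those of its highest peak, and means run over the libraries that called it, which leaves out lower values. Sites were given to protein-coding gene spans of the GRCm38.p6 table; exons and introns were not used here, and 42 of the 46 genes matched the promoter table. The detection tests, the limma fits (limma 3.58.1 in R 4.3.3, on log2 tags with oxygen as a covariate for DEX, uncentred, and centred on library medians for hypoxia) and the Benjamini-Hochberg adjustment with a threshold of 0.05 ran over all sites of the series. DEX against PBS used sites called in 3 or more of 18 libraries (detection) or in all 18 (tags), and hypoxia against normoxia sites in 2 or more of 9 (detection) or in all 9 DEX libraries (tags). The procedures were tested on simulated data with large changes, where unchanged sites had the same detection rate in every library. Differences in depth and yield between libraries were not simulated. Depth is limiting at low tags, where a missing peak is not absence of binding. The limma p-values rest on the spread between libraries within groups, which holds differences in library yield where tags were not centred. The detection p-values come from called or not called peaks alone and measure no spread.

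The members and gene lists were chosen with earlier results of these data known. Full values were given for each gene's best site (most libraries, then highest mean tags with DEX) if called in 9 or more libraries, for sites that passed a test, and for sites called in all 18 libraries or in all 9 DEX and no PBS libraries; sites named beyond that were chosen after their values were seen. Alternatives were each library left out, the replicate number as a block, other centring, a pseudocount of 10, 8-fold over input, an overlap of 100 bp, a limit of 50 kb, the nearest gene start, a common tag threshold, equal list lengths, and no minimum of libraries. Some genes of the surrounding lists are not reported here.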

Additional observations from a re-analysis of the deposited data

How the results depend on the processing

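Detection with DEX against PBS passed at 13 nuclear receptor sites, and at 12 to 15 when 1 library at a time was left out. It passed at 6 with the replicate number as a block (921 of all 2563 sites), at 6 with all 7398 sites tested, at 5 when only peaks of 83.2 or more tags counted (the highest of the lists' lowest values), and at 0 when each list was cut to its 78 highest peaks, where 2 members could be tested. The 6 sites of the block were among the 13, as were 4 of the 5 at the common threshold, where Nr0b2 site 3 was added. Tags rose with DEX at 2 sites, but at 1 within 50 kb, 4 by nearest gene start, 1 on the centred scale and 0 at the common threshold, where no member could be tested. Cut lists and thresholds test fewer sites. The block leaves 1 DEX and 1 PBS library in each stratum, so sites with few calls cannot pass in it. Other causes were not tested.

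On the centred scale the signs turned for the DEX change at Nr1i2 site 3 (-0.0343) and the interactions at Nr1i2 site 3 (0.0703) and Rxra site 1 (0.124), and without centring for the hypoxia changes at Esr1 site 3 (-0.0806) and Ppara site 6 (-0.0588). Leaving out 1 library at a time gave hypoxia changes of -0.0926 to 0.0578 at Nr1i2 site 3 (0.0578 without normoxia DEX replicate 2, 0.0162 without 24 h hypoxia DEX replicate 2) and of -0.183 to 0.00299 at Rxra site 1 (0.00299 without normoxia DEX replicate 2). With 1 library left out, the count of sites ran from 41 to 50 and that of genes from 15 to 21. It was 41 sites without normoxia PBS replicate 1 and also without normoxia DEX replicate 1, at 15 and 20 genes. At the common tag threshold 17 sites at 10 genes were left, and with equal list lengths 2 sites at 2 genes. Tests of tags for hypoxia (6 h and 24 h together) and for the interaction passed at 0 members under the alternatives run. Tests of detection in hypoxia passed at 0 sites of the whole series under each setting, which says nothing about stability, and the tests of 6 h and 24 h apart were run under no alternative.

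Same-numbered libraries deviated together in 14 of 18 pairs (r over 0.1, range -0.08 to 0.51). The sample titles name nothing that they share beyond the number. The main tests did not take the numbers as pairs, and the block was run as an alternative only. In 14 of the 18 the correlation was highest with the library of the same number. Apart from the detection count, the block changed no call.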

Other observations

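By the distance to gene spans, 2 further sites called in all 18 libraries fell to Wdr5, although the nearest gene start was that of Rxra; they were chosen after their values were seen. They lay 80.0 and 78.0 kb upstream of the Rxra start, at chr2:27597063-27597343 and chr2:27599099-27599379, on the same side as Rxra site 1. The farther site rose from 129 ± 59.5 to 389 ± 54.4 tags (SD, 9 libraries of each kind), or by 1.72 ± 0.31 on the log2 scale (SE; limma, adjusted p = 3.18e-07). The nearer site rose from 157 ± 105 to 434 ± 89.6 tags, a log2 change of 1.67 ± 0.31 (limma, adjusted p = 7.21e-07). In hypoxia with DEX their log2 changes were -0.01 ± 0.15 and 0.21 ± 0.12 (limma, adjusted p = 0.968 and 0.449). With the nearest start as the rule, these made 4 sites of the listed genes in all 18 libraries.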
